A study of Homo sapiens with 12 samples.

Results

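The nuclear receptors described here were the rows of the count table whose gene symbol was among 40 listed receptor symbols, and 33 of the 40 were found among its 16389 genes. The other 7 (RXRG, RARB, ESR1, ESR2, ESRRG, RORB and NR2E3) were not analysed here. The authors kept genes that averaged at least 10 reads per sample. RNA came from HepG2, a single established human liver cancer cell line, in 4 groups of 3 libraries. LG cells were grown in 5.5 mM glucose and HG cells in 20 mM glucose for 48 h, and LGV and HGV cells were grown in the same media and then exposed to 1 mM valproic acid (VPA) for a further 12 h. VPA is an anticonvulsant drug that inhibits histone deacetylases. The hour at which the untreated controls were harvested is not given in the sources used here, so time in culture and VPA cannot be told apart. Nothing states that the replicates were separate cultures, so the p-values measure the spread between these libraries, which may be technical.

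Nuclear receptors are transcription factors that bind DNA through a zinc finger domain and respond, in many cases, to a fat-soluble ligand such as a steroid, a bile acid, an oxysterol, a fatty acid or a retinoid. Many act as dimers with a retinoid X receptor, and they call in coactivators or corepressors, of which the latter carry histone deacetylases. In the liver they control bile acid synthesis, lipid and glucose metabolism and drug clearance. Orphan receptors are those whose natural ligand is unknown or absent.

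Between 29798442 and 45572694 reads were counted per library. Levels are CPM, the reads of a gene per 1000000 reads of the library scaled by its TMM factor, and a count of 3 reads corresponded to 0.0713 to 0.112 CPM, a limit that covers counting error only. Each comparison was fitted across all genes by the quasi-likelihood method of edgeR, and a gene was called at a Benjamini-Hochberg FDR of 0.05 or less. Every FDR below is from that test unless another is named. All 9 hepatocyte markers examined, albumin (ALB) and alpha-fetoprotein (AFP) among them, were present at a summed 40000 to 61600 CPM. Of the markers of cells that a HepG2 culture should not hold, CD14 (leukocytes) reached at most 4.73 CPM, and VWF and CDH5 (endothelium) summed to at most 4.85 CPM. COL1A1 and PDGFRB, 2 of 4 markers of fibroblasts and stellate cells, summed to 18.8 to 58.3 CPM, nearly all from PDGFRB. The other markers of these cell types were not analysed here.

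The promoters of 4 receptors that responded to VPA in both media, NR1H4 (lower) and NR4A3, PPARD and RARG (higher), are printed because each has a single start in the RefSeq table, so that the sequence belongs to the receptor without a choice between starts. Each run is the 250 bases before that start, 5′ to 3′ on the gene's strand, credited to RefSeq on GRCh38.p14 and placed on GRCh37 by exact match. Capitals mark 3 short motifs on either strand: AGGTCA (or TGACCT), the half-site of many nuclear receptors, TGACGT (or ACGTCA), the half-site of cyclic AMP response elements, and GGGCGG (or CCGCCC), the GC box.
NR1H4, chr12:100896888-100897137, plus strand: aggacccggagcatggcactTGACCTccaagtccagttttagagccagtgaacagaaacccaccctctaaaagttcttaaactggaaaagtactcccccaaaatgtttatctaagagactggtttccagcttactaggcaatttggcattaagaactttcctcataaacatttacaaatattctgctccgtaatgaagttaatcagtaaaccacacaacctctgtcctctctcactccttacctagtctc
NR4A3, chr9:102583917-102584166, plus strand: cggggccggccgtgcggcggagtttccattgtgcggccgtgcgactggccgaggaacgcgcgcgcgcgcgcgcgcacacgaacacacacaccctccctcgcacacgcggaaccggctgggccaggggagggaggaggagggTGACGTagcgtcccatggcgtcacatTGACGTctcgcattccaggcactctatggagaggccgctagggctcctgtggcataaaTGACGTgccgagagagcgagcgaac
PPARD, chr6:35310085-35310334, plus strand: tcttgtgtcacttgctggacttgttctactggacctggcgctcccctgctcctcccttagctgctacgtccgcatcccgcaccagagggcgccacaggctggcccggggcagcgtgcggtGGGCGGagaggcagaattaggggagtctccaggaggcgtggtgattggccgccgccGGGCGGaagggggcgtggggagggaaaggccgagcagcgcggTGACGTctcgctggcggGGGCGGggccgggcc
RARG, chr12:53625994-53626243, minus strand: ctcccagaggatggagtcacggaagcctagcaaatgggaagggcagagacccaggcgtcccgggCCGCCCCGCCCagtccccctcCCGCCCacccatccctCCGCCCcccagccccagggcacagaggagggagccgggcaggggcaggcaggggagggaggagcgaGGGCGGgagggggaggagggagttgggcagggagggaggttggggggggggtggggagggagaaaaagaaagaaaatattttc

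The window of NR1H4 was poor in CpG, with 2 CpG dinucleotides and a GC content of 42%, against a median of 11 and 58% over all 35093 windows of this length. It held 1 AGGTCA match. The windows of NR1H4 and RARG lie inside the GRCh37 gene, downstream of its outermost annotated start, and the end of the NR4A3 window reaches past that start. The NR4A3 window held 33 CpG dinucleotides and 3 TGACGT matches, the PPARD window 23 CpG, 1 TGACGT and 3 GGGCGG matches, and the RARG window 10 CpG and 5 GGGCGG matches, of which a pair shares 1 base. AGGTCA was present in 12.1% of all windows, TGACGT in 7.1% and GGGCGG in 42.6%. RefSeq windows were matched for 29 of the 33 receptors, with 60 windows, of which 7, 5 and 31 held the respective motif. NR0B2, NR2F6, NR4A2 and VDR had no match in the table. A match is a run of letters and not a bound site.

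To order the receptors by level, CPM was divided by the kilobases of exon of each gene. NR0B2 (small heterodimer partner, a receptor that lacks a DNA binding domain and represses others) had the highest level in each of the 4 groups, with 159 CPM per kb in LG, 111 in HG, 84.1 in LGV and 93.4 in HGV. It was followed in LG by NR2F6 (an orphan receptor of the COUP-TF family) with 31.8 CPM per kb, ESRRA (oestrogen-related receptor alpha, a regulator of energy metabolism) with 30.4, NR1H4 (farnesoid X receptor, FXR, the bile acid sensor) with 25.1 and RXRB with 23.6. The lowest levels in LG were those of VDR (the vitamin D receptor) with 0.025 CPM per kb, NR4A2 with 0.0528, ESRRB with 0.07 and NR4A3 with 0.072. Neighbours in this order were often not separated: the ranges of the 3 LG libraries overlapped for 24 of the 32 neighbouring pairs. NR0B2 stood clear of NR2F6, and NR1H4 of RXRB, whereas NR2F6 and ESRRA overlapped. From LG to HGV, NR1H4 moved from rank 4 to rank 13 and PPARD from rank 13 to rank 4.

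**Figure D1:**
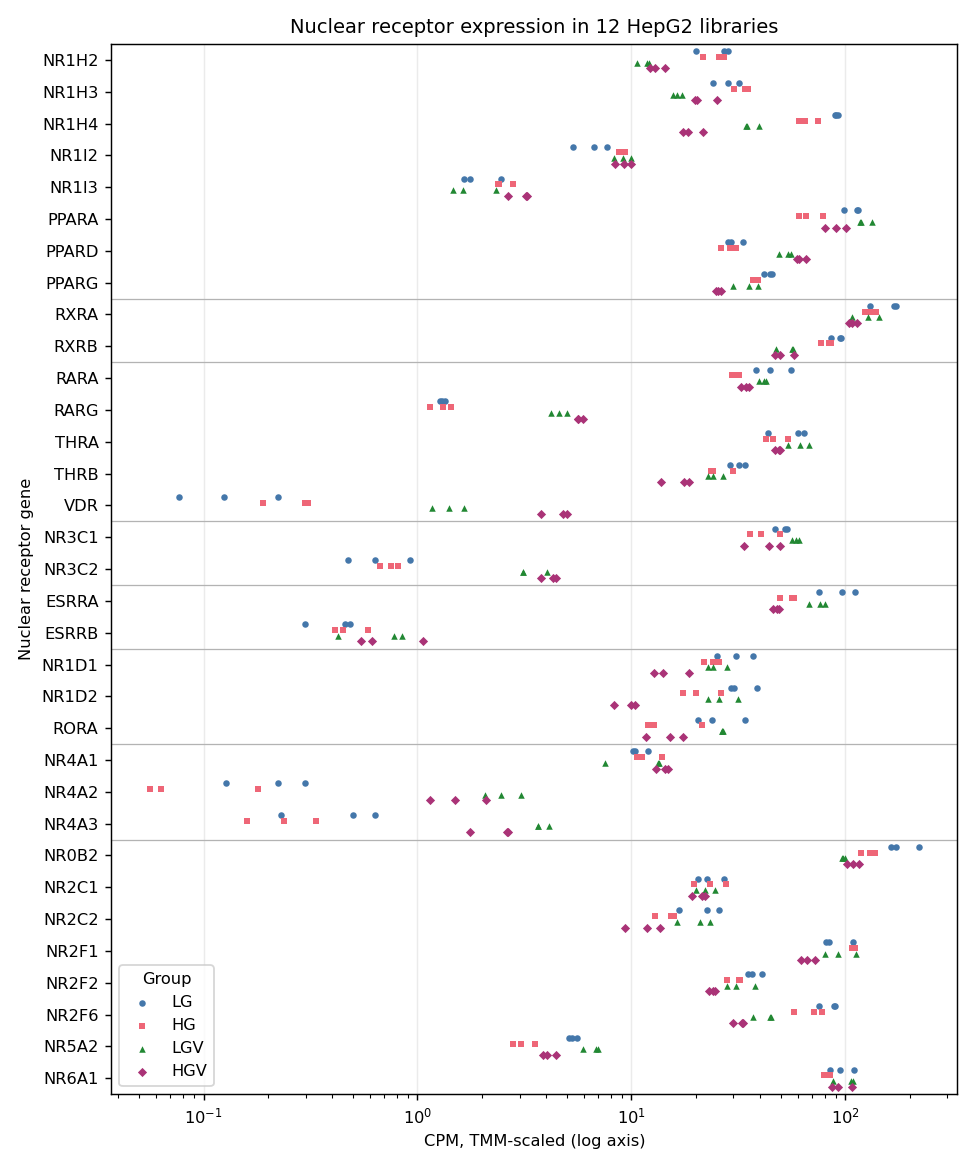
Level of each of the 33 nuclear receptors in each library, as TMM-scaled CPM on a log axis, not divided by gene length, with receptors grouped by class between the grey lines. Each symbol is 1 library and each colour a group of 3. VDR, NR4A2, NR4A3, NR3C2 and RARG lay far to the right in LGV and HGV, and NR1H4 lay to the left, reaching 17.5 to 21.7 CPM in HGV.

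Most receptors were not called with high glucose in untreated cells, and those called were lower. Without VPA, 9 of the 31 receptors tested were lower in HG than in LG, whereas 24.7% of the 15452 genes tested were called, 12% higher and 12.7% lower. No receptor was called higher by edgeR's quasi-likelihood test; at an unadjusted p of 0.05 or less 12 receptors differed, 2 of them higher, beside 37.9% of all genes, and DESeq2's Wald test called 1 higher and 9 lower. The median log2 fold change was -0.24 over the receptors and 0.01 over all genes. With library size alone as the scaling, 1 receptor was higher and 6 lower, and the median of all genes moved to 0.11. The number of receptors called was 4 without LG replicate 1, 4 without HG replicate 3, 5 without HG replicate 2, and 2 (ESRRA and PPARA) at an FDR of 0.01, where 12% of all genes were called. RNA of a whole culture cannot tell a lower level in every cell from fewer cells with the transcript. The markers CD14 (1.2 to 2.5 CPM in LG, 3.87 to 4.73 in HG) and PDGFRB with COL1A1 (37.9 to 58.3 summed CPM in LG, 18.8 to 29.3 in HG) also differed between these groups, and their part in the result was not tested.

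In VPA-treated cells, 21 of 33 receptors differed between HGV and LGV, 3 higher and 18 lower, beside 40.7% of all 16208 genes tested, 21.2% higher and 19.5% lower. The 18 are 54.5% of the receptors. The median was -0.35 over the receptors and 0.01 over all genes. Library size alone gave 4 higher and 15 lower. Without LGV replicate 2, 12 receptors were called, and the other libraries left out in turn gave 15 to 21. At an FDR of 0.01, 13 receptors and 26.3% of all genes were called. Of the 9 receptors lower in HG than in LG, 8 were also lower in HGV than in LGV, and NR0B2 was the exception. How many of all genes were called in both comparisons is not given here. The 8 therefore cannot be read as a trait particular to the receptors. The pair of comparisons has no library in common. The summed hepatocyte markers (40000 to 41000 CPM in LGV, 47000 to 61600 in HGV), CD14 (0.63 to 1.41 and 2.59 to 3.34 CPM) and VWF with CDH5 (2.24 to 3.09 and 3.83 to 4.85 CPM) were higher in HGV, and their part was not tested. Across the 31 receptors tested in both, the log2 fold changes had a Pearson r of 0.729 and a Spearman rho of 0.741, a description across genes that share libraries and scaling.

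VPA moved receptors in both directions. In high glucose, 19 of 33 receptors differed between HGV and HG, 7 higher and 12 lower, where 46.1% of all 16188 genes tested were called, 25.8% higher and 20.2% lower. In low glucose, 13 of 33 differed between LGV and LG, 6 higher and 7 lower, where 41.6% of all 15944 genes tested were called, 21.7% higher and 19.9% lower. The receptor medians were -0.06 and -0.07, and those of all genes 0.02 and -0.01. With library size alone the splits were 10 higher and 10 lower in high glucose and 9 higher and 6 lower in low glucose, and the medians of all genes rose to 0.15 and 0.16. The summed hepatocyte markers ran from 40000 to 41000 CPM in LGV and from 52000 to 58700 CPM in LG. CD14 was at 3.87 to 4.73 CPM in HG and 2.59 to 3.34 in HGV, and VWF with CDH5 at 2.21 to 3.71 and 3.83 to 4.85 CPM, and the part of these markers was not tested. VDR and NR4A2 in both media, and NR4A3 in high glucose, reached the minimum mean of 10 reads only through the treated libraries, so they had to differ in order to be tested. NR3C2, NR4A2, NR4A3, PPARD, RARG and VDR were higher with VPA in both media, and NR1H2, NR1H3, NR1H4, NR2F6, RXRB and THRB were lower in both.

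**Figure D2:**
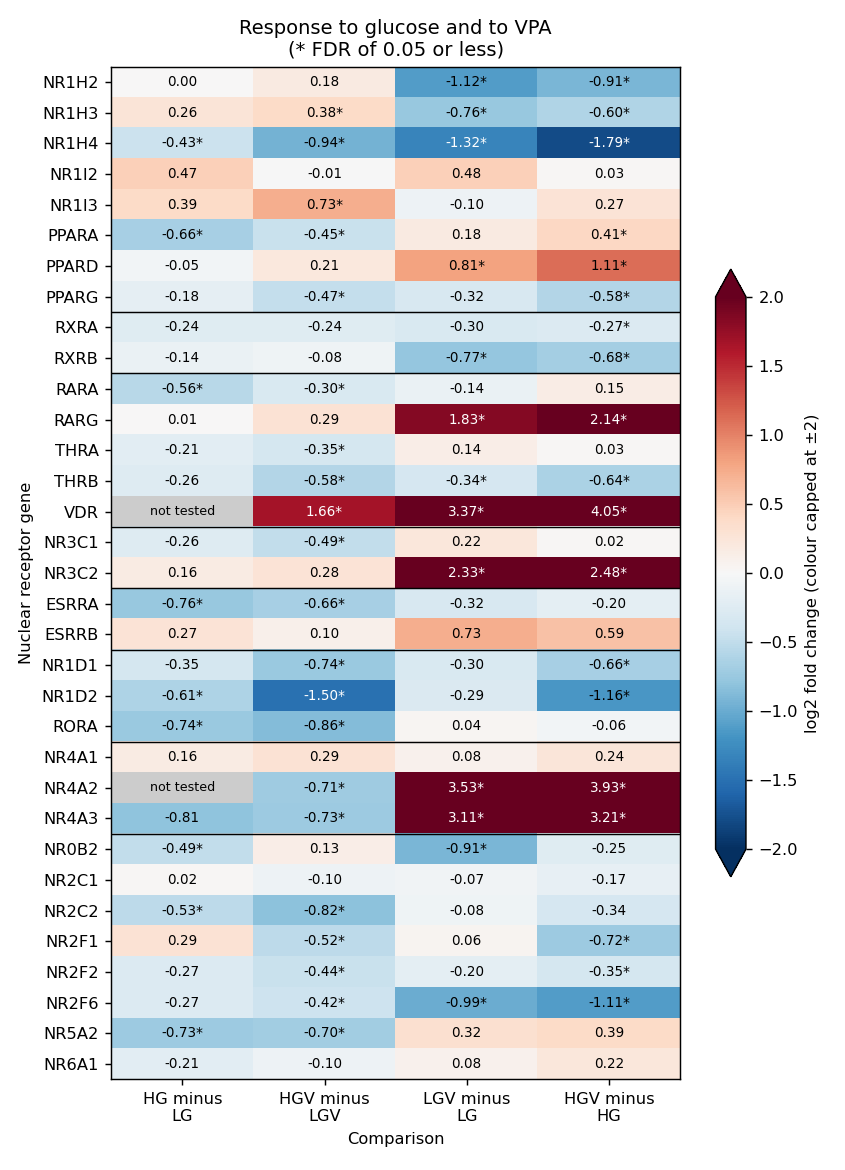
Log2 fold change of each receptor (rows, grouped by class) in 4 comparisons (columns), with an asterisk where edgeR's FDR was 0.05 or less and grey where too few reads were counted for a test. The glucose columns are mostly blue, with values down to -1.50 for NR1D2 in HGV minus LGV, and the VPA columns show a small set of receptors in dark red, up to 4.05 for VDR.

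The calls with VPA were also counted by the CPM of the untreated group, which is not divided by gene length and so reflects the reads available for the test. Of the 21 receptors at 20 CPM or more in HG, 2 were higher and 12 lower, where 16.0% of all genes at that level were called higher and 31.8% lower. Of the 23 at 20 CPM or more in LG, 1 was higher and 7 lower, where 13.4% of all genes were called higher and 31.9% lower. Those between 2 and 20 CPM, 6 in HG and 3 in LG, held no called receptor. At that level 29.2% of all genes were called higher and 17.0% lower in high glucose, and 23.7% and 16.5% in low glucose. Under 2 CPM in HG, RARG and NR3C2 were higher and ESRRB was not called, and the remaining 3, VDR, NR4A2 and NR4A3, had to be higher in order to be tested. Of all genes under 2 CPM in HG, 37.8% were called higher and 5.21% lower. The minimum read count acts the same way on all genes of that level, and the untreated level also enters the fold change, so these counts are a description.

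NR1H4 (chr12:100867486-100958192 of GRCh37, plus strand) had the largest fall with VPA. Its product, FXR, binds bile acids and represses their synthesis. The 3 LG libraries held 89.5, 92.8 and 90.7 CPM, the HG libraries 74.5, 60.6 and 64.7, the LGV libraries 34.4, 39.6 and 34.8 and the HGV libraries 17.5, 18.3 and 21.7. The 4 groups did not overlap, and NR1H4 fell with high glucose and with VPA. VPA lowered it 3.47-fold in high glucose (log2 fold change -1.79 ± 0.13 SE, edgeR FDR = 3.12e-07) and 2.49-fold in low glucose (-1.32 ± 0.11, edgeR FDR = 6.3e-07). High glucose lowered it 1.35-fold without VPA (-0.43 ± 0.12, edgeR FDR = 0.0143) and 1.91-fold with VPA (-0.94 ± 0.13, edgeR FDR = 3.07e-05). The call without VPA was lost when HG replicate 2, HG replicate 3 or LG replicate 1 was left out, or with library size alone (edgeR FDR of up to 0.116). The difference between the VPA effects of both media, -0.47 ± 0.17 on the log2 scale, did not pass (edgeR FDR = 0.276).

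The liver X receptors NR1H2 (LXR beta) and NR1H3 (LXR alpha), which sense oxysterols, also fell with VPA in both media. NR1H2 was at 28.4, 20.1 and 27.2 CPM in LG and at 11.8, 10.6 and 12.1 CPM in LGV, without overlap. Its log2 fold change was -1.12 ± 0.16 in low glucose (edgeR FDR = 5.61e-05) and -0.91 ± 0.13 in high glucose (edgeR FDR = 9.49e-05). NR1H3 was at 32.0, 24.1 and 28.3 CPM in LG, 15.7, 17.3 and 16.4 in LGV, 30.3, 34.9 and 33.9 in HG and 19.8, 25.0 and 20.3 in HGV. Both VPA groups of NR1H3 lay below their controls (-0.76 ± 0.14, edgeR FDR = 0.000557 in low glucose; -0.60 ± 0.12, edgeR FDR = 0.00162 in high glucose). It was 1.30-fold higher in HGV than in LGV (0.38 ± 0.14, edgeR FDR = 0.0309), a call that was lost without HGV replicate 2 or any of the 3 LGV libraries (edgeR FDR of up to 0.103). NR1H3 overlaps ACP2 on the other strand by 189 exonic bases, and the strand setting of the counting is not stated, so reads there cannot be told apart.

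The 3 peroxisome proliferator-activated receptors, which sense fatty acids, went separate ways. PPARA, which drives fatty acid oxidation in the liver, was at 114, 115 and 98.2 CPM in LG and 78.3, 65.4 and 60.5 CPM in HG, 1.58-fold lower without overlap (-0.66 ± 0.13, edgeR FDR = 0.00118), and this held under every alternative tried. In LGV it was at 118, 133 and 117 CPM and in HGV at 101, 80.0 and 90.8 CPM, 1.37-fold lower (-0.45 ± 0.12, edgeR FDR = 0.00726). VPA raised PPARA 1.33-fold in high glucose (0.41 ± 0.13, edgeR FDR = 0.0171), so it was the one receptor called lower with glucose and higher with VPA in that medium. That rise was lost without HG replicate 2, HG replicate 3 or HGV replicate 1 (edgeR FDR of up to 0.0944). In low glucose the change was 0.18 ± 0.12 (edgeR FDR = 0.241).

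PPARD (chr6:35310335-35395968 of GRCh37, plus strand), the broadly expressed member of this group, rose with VPA in both media. It was at 33.4, 28.3 and 29.2 CPM in LG, 26.2, 31.0 and 28.8 in HG, 49.1, 55.6 and 53.7 in LGV and 65.6, 60.5 and 59.2 in HGV. The treated libraries all lay above the untreated ones, 2.15-fold in high glucose (1.11 ± 0.11, edgeR FDR = 5.12e-06) and 1.76-fold in low glucose (0.81 ± 0.12, edgeR FDR = 7.52e-05). PPARG, the adipocyte receptor, was at 36.9 to 39.1 CPM in HG and 24.8 to 26.1 CPM in HGV, 1.5-fold lower (-0.58 ± 0.10, edgeR FDR = 0.000496). In low glucose it changed by -0.32 ± 0.13 (edgeR FDR = 0.0539). HGV was below LGV (-0.47 ± 0.13, edgeR FDR = 0.0067), though not past the threshold without LGV replicate 2 (edgeR FDR = 0.0532).

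The xenobiotic sensors changed little. NR1I2 (pregnane X receptor, PXR) was called in no comparison. It was at 5.36 to 7.71 CPM in LG and at 8.25 to 9.95 CPM in the other groups, with log2 fold changes of 0.47 ± 0.18 for high glucose (edgeR FDR = 0.0683) and 0.48 ± 0.19 for VPA in low glucose (edgeR FDR = 0.0523). NR1I3 (constitutive androstane receptor, CAR) was at 3.25, 3.23 and 2.65 CPM in HGV and 2.34, 1.46 and 1.63 CPM in LGV, 1.66-fold higher in HGV (0.73 ± 0.24, edgeR FDR = 0.0212). The call did not hold without HGV replicate 1, LGV replicate 2 or LGV replicate 3 (edgeR FDR of up to 0.0996), and NR1I3 shares 663 exonic bases with TOMM40L on the other strand.

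Both retinoid X receptors, the common dimer partners, were lower with VPA in high glucose. RXRB was at 95.5, 94.8 and 86.0 CPM in LG and 47.5, 56.5 and 56.7 in LGV, and at 77.2, 83.5 and 85.6 in HG and 49.4, 57.8 and 46.8 in HGV. The treated and untreated libraries did not overlap (-0.77 ± 0.12, edgeR FDR = 0.000103 in low glucose; -0.68 ± 0.11, edgeR FDR = 0.000279 in high glucose). RXRB overlaps SLC39A7 on the other strand by 361 exonic bases. RXRA fell 1.21-fold in high glucose (-0.27 ± 0.10, edgeR FDR = 0.0364), from 123, 139 and 131 CPM to 107, 113 and 104 CPM. This was not past the threshold without HG replicate 2, HG replicate 3, HGV replicate 1 or HGV replicate 3 (edgeR FDR of up to 0.145), nor with library size alone or in a joint fit of the 12 libraries (edgeR FDR of up to 0.203 over all alternatives).

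Among the receptors for vitamin D, retinoic acid and thyroid hormone, VDR (chr12:48235320-48336831 of GRCh37, minus strand) had the largest change with VPA of any receptor in high glucose, and the change second to that of NR4A2 in low glucose. It was counted with 6, 5 and 3 reads in LG, 6, 10 and 11 in HG, 55, 43 and 44 in LGV and 156, 158 and 170 in HGV, which is 0.0766 to 0.224 CPM in LG, 0.19 to 0.308 in HG, 1.17 to 1.65 in LGV and 3.76 to 5.0 in HGV. The treated libraries lay far above the untreated ones. VDR rose 16.6-fold with VPA in high glucose (4.05 ± 0.27) and 10.3-fold in low glucose (3.37 ± 0.41), against controls near the limit of 3 reads. VDR reached the minimum read count only through the treated libraries, so no FDR is given for these 2 changes. It was 3.16-fold higher in HGV than in LGV (1.66 ± 0.23, edgeR FDR = 3.11e-05), the largest rise with glucose of any receptor, and had too few reads for a test of HG against LG. The interaction of glucose and VPA was 0.70 ± 0.56 (edgeR FDR = 0.687).

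RARG (retinoic acid receptor gamma, chr12:53604351-53626764 of GRCh37, minus strand) rose with VPA from 1.35, 1.27 and 1.3 CPM in LG to 5.01, 4.22 and 4.59 in LGV, and from 1.43, 1.14 and 1.32 in HG to 5.92, 5.61 and 5.62 in HGV. The rise was 3.55-fold in low glucose (1.83 ± 0.22, edgeR FDR = 1.37e-05) and 4.41-fold in high glucose (2.14 ± 0.18, edgeR FDR = 1.34e-06). Its relative RARA was not called with VPA in either medium and was lower in high glucose instead. RARA was at 55.6, 44.4 and 38.1 CPM in LG and 29.6, 31.7 and 31.0 in HG (-0.56 ± 0.15, edgeR FDR = 0.01), a call lost without HG replicate 3 or LG replicate 1 (edgeR FDR of up to 0.101). With VPA the glucose effect was -0.30 ± 0.12 (edgeR FDR = 0.046), lost without HGV replicate 1, HGV replicate 3, LGV replicate 2 or LGV replicate 3, with library size alone and in a joint fit of the 12 libraries (edgeR FDR of up to 0.15). RARA overlaps an antisense gene by 556 exonic bases.

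THRB (thyroid hormone receptor beta, the main form in liver) was at 33.8, 32.0 and 28.8 CPM in LG, 29.8, 23.6 and 24.2 in HG, 24.2, 26.8 and 22.8 in LGV and 18.6, 13.7 and 17.6 in HGV. HGV lay below every other group. VPA lowered THRB in high glucose (-0.64 ± 0.15, edgeR FDR = 0.00312) and by -0.34 ± 0.13 in low glucose (edgeR FDR = 0.0414), the latter lost without LG replicate 1 or 2 or any LGV library, or with library size alone (edgeR FDR of up to 0.26). High glucose lowered it in treated cells (-0.58 ± 0.14, edgeR FDR = 0.00317). THRA was called in HGV against LGV alone (-0.35 ± 0.12, edgeR FDR = 0.0268), a call lost without HGV replicate 1 or 3 or LGV replicate 2 or 3, with library size alone and in the joint fit (edgeR FDR of up to 0.16). THRA shares 473 exonic bases with NR1D1 on the other strand of chromosome 17.

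Of the steroid receptors, NR3C2 (mineralocorticoid receptor) rose with VPA and NR3C1 (glucocorticoid receptor) did not pass. NR3C2, at chr4:148999913-149365850 of GRCh37 on the minus strand, was at 0.636, 0.474 and 0.919 CPM in LG, 3.12, 4.03 and 3.1 in LGV, 0.666, 0.807 and 0.756 in HG and 3.77, 4.42 and 4.32 in HGV. No treated library overlapped an untreated one, and the rise was 5.04-fold in low glucose (2.33 ± 0.29, edgeR FDR = 1.86e-05) and 5.59-fold in high glucose (2.48 ± 0.21, edgeR FDR = 1.22e-06). NR3C1 changed with VPA by 0.02 ± 0.16 in high glucose (edgeR FDR = 0.936) and 0.22 ± 0.11 in low glucose (edgeR FDR = 0.137). It was lower in HGV (43.9, 33.6 and 49.7 CPM) than in LGV (56.2, 61.0 and 58.6 CPM), by -0.49 ± 0.14 (edgeR FDR = 0.00887).

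ESRRA (chr11:64072969-64084215 of GRCh37, plus strand) had the largest fall with glucose among the receptors called in untreated cells. It was at 111, 96.2 and 75.7 CPM in LG, 49.7, 56.6 and 57.8 in HG, 67.6, 80.4 and 76.0 in LGV and 46.0, 49.2 and 47.8 in HGV. High glucose lowered it 1.69-fold without VPA (-0.76 ± 0.14, edgeR FDR = 0.000853) and 1.59-fold with VPA (-0.66 ± 0.12, edgeR FDR = 0.000265), without overlap, under every alternative tried. VPA changed it by -0.20 ± 0.10 in high glucose (edgeR FDR = 0.138) and -0.32 ± 0.14 in low glucose (edgeR FDR = 0.0755). ESRRA overlaps TRMT112 on the other strand by 284 exonic bases. ESRRB, a pluripotency factor, was at 0.299 to 1.06 CPM throughout and was called in no comparison.

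Of the 3 receptors of the circadian clock, NR1D2 and RORA were called lower with high glucose with and without VPA, and NR1D1 with VPA alone. NR1D1 and NR1D2 (REV-ERB alpha and beta) repress ARNTL, the gene of a core activator of the clock, and RORA activates it. NR1D2, at chr3:23986777-24022108 of GRCh37 on the plus strand, was at 30.3, 38.7 and 29.3 CPM in LG, 26.3, 17.4 and 20.1 in HG, 22.7, 25.8 and 31.6 in LGV and 10.0, 8.27 and 10.4 in HGV. HGV lay below the other 3 groups. NR1D2 was 2.83-fold lower in HGV than in LGV (-1.50 ± 0.15, edgeR FDR = 1.34e-06) and 2.23-fold lower in HGV than in HG (-1.16 ± 0.17, edgeR FDR = 0.000107), but with VPA in low glucose it changed by -0.29 ± 0.15 (edgeR FDR = 0.147). Without VPA the glucose effect was -0.61 ± 0.16 (edgeR FDR = 0.0117), lost without HG replicate 2, HG replicate 3 or LG replicate 2 (edgeR FDR of up to 0.0913).

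NR1D1 was at 18.5, 14.1 and 12.7 CPM in HGV, below HG at 24.0, 25.8 and 21.8 CPM (-0.66 ± 0.15, edgeR FDR = 0.00289) and below LGV at 22.7, 24.0 and 28.0 CPM (-0.74 ± 0.15, edgeR FDR = 0.000846). In LG it was at 37.1, 25.1 and 30.8 CPM, which overlapped HG (-0.35 ± 0.16, edgeR FDR = 0.106). RORA was at 23.7, 33.8 and 20.4 CPM in LG and 21.5, 12.0 and 12.8 in HG, where HG replicate 1 lay within the LG range. Its glucose effect was -0.74 ± 0.21 without VPA (edgeR FDR = 0.0153), lost without HG replicate 2, HG replicate 3, LG replicate 1 or LG replicate 2, or with library size alone (edgeR FDR of up to 0.133). With VPA, RORA was at 26.4, 26.7 and 26.5 CPM in LGV and 15.2, 11.7 and 17.5 in HGV, without overlap (-0.86 ± 0.15, edgeR FDR = 0.000192). VPA itself changed RORA by 0.04 ± 0.16 and -0.06 ± 0.22 in low and high glucose (edgeR FDR = 0.87 and 0.836).

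The NR4A receptors are products of early response genes and have no established natural ligand. NR4A2 lies at chr2:157180949-157198860 and NR4A3 at chr9:102584137-102629173 of GRCh37. NR4A2 was counted with 6, 12 and 5 reads in LG and 2, 6 and 2 in HG, and with 69, 76 and 114 in LGV and 68, 48 and 51 in HGV. NR4A2 rose 11.6-fold with VPA in low glucose (3.53 ± 0.36) and 15.2-fold in high glucose (3.93 ± 0.45). NR4A3 had 17, 20 and 9 reads in LG, 5, 8 and 12 in HG, 122, 127 and 137 in LGV and 86, 74 and 89 in HGV. It rose 8.64-fold in low glucose (3.11 ± 0.32, edgeR FDR = 2.85e-06) and 9.28-fold in high glucose (3.21 ± 0.33). NR4A2 in both media and NR4A3 in high glucose reached the minimum read count only through the treated libraries, so no FDR is given there. Treated and untreated libraries were far apart for both. NR4A1, the third member, was at 7.5 to 14.8 CPM in the 12 libraries and was called in no comparison, with VPA effects of 0.08 ± 0.21 and 0.24 ± 0.14 in low and high glucose (edgeR FDR = 0.785 and 0.178).

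Under VPA, both inducible NR4A genes were lower in high than in low glucose, NR4A3 without overlap (-0.73 ± 0.22, edgeR FDR = 0.0137) and NR4A2 with overlap (-0.71 ± 0.27, edgeR FDR = 0.0394). The NR4A3 call was lost without HGV replicate 2 or LGV replicate 2 (edgeR FDR of up to 0.0528), and the NR4A2 call without HGV replicate 2 or 3 or LGV replicate 2 or 3, with library size alone and in the joint fit (edgeR FDR of up to 0.194). These are the opposite sign to VDR, which was induced as strongly and was higher in HGV than in LGV.

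**Figure D3:**
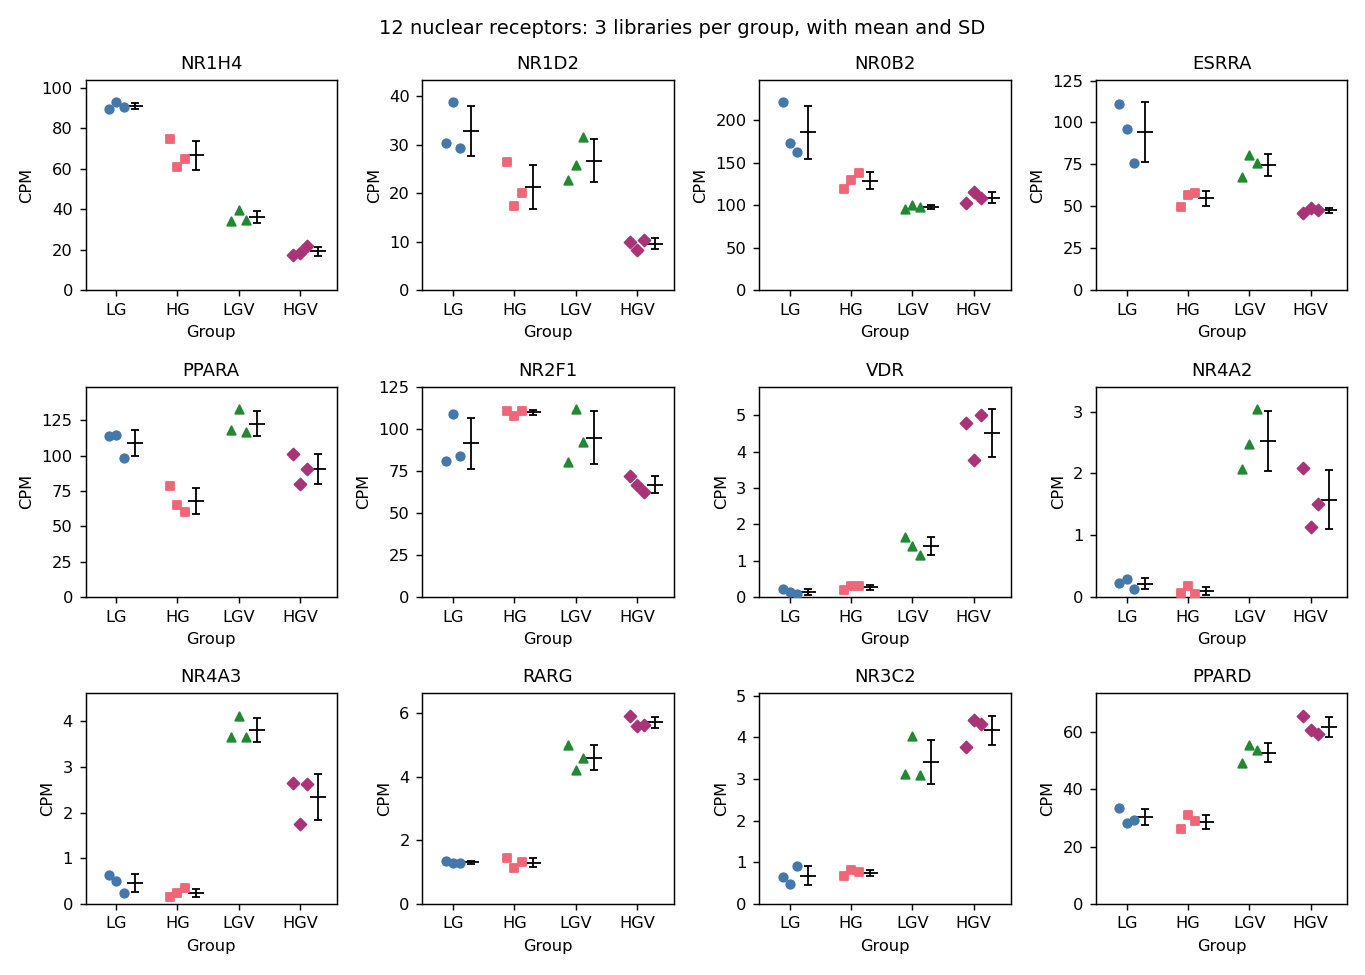
CPM of 12 receptors in each library of the 4 groups (symbols), with the mean and SD of the 3 libraries (black), on linear axes that start at 0. VDR, NR4A2, NR4A3, RARG, NR3C2 and PPARD were higher in both VPA groups, NR1H4 stepped down through the 4 groups, and NR1D2 was lowest in HGV at 8.27 to 10.4 CPM.

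NR0B2 (chr1:27237980-27240466 of GRCh37, minus strand) was lower in each of the 3 other groups than in LG. Its libraries held 221, 173 and 163 CPM in LG, 119, 130 and 138 in HG, 96.0, 100 and 97.5 in LGV and 102, 116 and 109 in HGV. High glucose lowered it 1.41-fold (-0.49 ± 0.13, edgeR FDR = 0.0107) and VPA 1.88-fold in low glucose (-0.91 ± 0.13, edgeR FDR = 5.61e-05), whereas VPA in high glucose gave -0.25 ± 0.10 (edgeR FDR = 0.0615) and glucose under VPA 0.13 ± 0.11 (edgeR FDR = 0.367). The glucose call was lost without HG replicate 1 or LG replicate 1 (edgeR FDR of up to 0.0951). The VPA call in low glucose held under every alternative tried.

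The COUP-TF receptors are orphan receptors that often repress. NR2F6 was at 89.3, 88.3 and 75.4 CPM in LG, 57.5, 71.1 and 77.4 in HG, 37.1, 44.9 and 44.6 in LGV and 29.7, 33.1 and 32.8 in HGV, and fell with VPA 1.98-fold in low glucose (-0.99 ± 0.12, edgeR FDR = 1.72e-05) and 2.16-fold in high glucose (-1.11 ± 0.12, edgeR FDR = 1.53e-05). NR2F1 was at 81.3, 109 and 84.2 CPM in LG, 111, 108 and 111 in HG, 80.4, 112 and 92.4 in LGV and 72.2, 66.5 and 62.3 in HGV. It fell with VPA in high glucose (-0.72 ± 0.10, edgeR FDR = 7.28e-05) and changed by 0.06 ± 0.15 in low glucose (edgeR FDR = 0.757), so that HGV lay below all other groups. NR2F2 fell with VPA in high glucose (-0.35 ± 0.11, edgeR FDR = 0.0187), a call lost without HG replicate 2, HG replicate 3 or HGV replicate 1, or with library size alone (edgeR FDR of up to 0.0964). All 3 were lower in HGV than in LGV (NR2F1 -0.52 ± 0.13, NR2F2 -0.44 ± 0.13 and NR2F6 -0.42 ± 0.12, edgeR FDR = 0.00437, 0.0123 and 0.0105). That call was lost without LGV replicate 2 for NR2F2 (edgeR FDR of up to 0.115), and without HGV replicate 1, LGV replicate 2 or LGV replicate 3 for NR2F6 (edgeR FDR of up to 0.0664). NR2F1 overlaps its antisense gene by 158 exonic bases.

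The remaining orphan receptors did not pass with VPA. NR5A2 (liver receptor homologue 1, an activator of bile acid synthesis genes) was at 5.09, 5.26 and 5.54 CPM in LG, 3.04, 2.81 and 3.56 in HG, 6.96, 5.94 and 6.83 in LGV and 4.45, 3.85 and 4.03 in HGV. Both high glucose groups lay below both low glucose groups. NR5A2 was 1.66-fold lower in HG (-0.73 ± 0.20, edgeR FDR = 0.0126) and 1.62-fold lower in HGV (-0.70 ± 0.18, edgeR FDR = 0.00467) than at low glucose, the former lost without HG replicate 2 (edgeR FDR = 0.0646). NR2C2 (testicular receptor 4) was also lower, by -0.53 ± 0.17 without VPA (edgeR FDR = 0.0287) and -0.82 ± 0.17 with VPA (edgeR FDR = 0.000786). The former was lost without HG replicate 1, HG replicate 3, LG replicate 1 or LG replicate 2, or with library size alone (edgeR FDR of up to 0.19), and 7157 exonic bases of NR2C2 lie opposite MRPS25. NR2C1 and NR6A1, at 19.3 to 27.6 and 79.3 to 110 CPM in the 12 libraries, were called in no comparison.

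Of the 33 receptors, 29 had a VPA effect of the same sign in both media. With VPA, 6 were called higher and 6 lower in both media, 7 were called in high glucose alone and 1 in low glucose alone. Of all genes, 46.1% were called with VPA in high glucose and 41.6% in low glucose. The share of all genes called in both media, or with the same sign, is not given here. The agreement therefore cannot be read as a trait particular to the receptors. Comparisons in low and high glucose share no library, and the log2 fold changes of the 33 receptors had a Pearson r of 0.972 and a Spearman rho of 0.878, a description across genes of the same libraries. VDR and NR4A2 in both media, and NR4A3 in high glucose, had to be higher to be tested. Their agreement between media therefore adds no support to these values. No receptor passed the interaction test of glucose and VPA by edgeR's quasi-likelihood test, which called 7 genes in all (0.0427%). At an unadjusted p of 0.05 or less 4 receptors stood (NR2F1, NR0B2, NR1D2 and NR1H4), where 11.3% of all genes did. edgeR's likelihood ratio test and DESeq2's Wald test each called 3 of 33, NR0B2 (log2 interaction 0.67 ± 0.17, quasi-likelihood edgeR FDR = 0.114, likelihood ratio edgeR FDR = 0.0272, DESeq2 FDR = 0.0461), NR1D2 (-0.86 ± 0.24, 0.143, 0.0491 and 0.038) and NR2F1 (-0.77 ± 0.19, 0.0953, 0.0168 and 0.0187). Without LG replicate 2, the quasi-likelihood test called NR1D2 (edgeR FDR = 0.0317) and NR2F1 (edgeR FDR = 0.019).

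**Figure D4:**
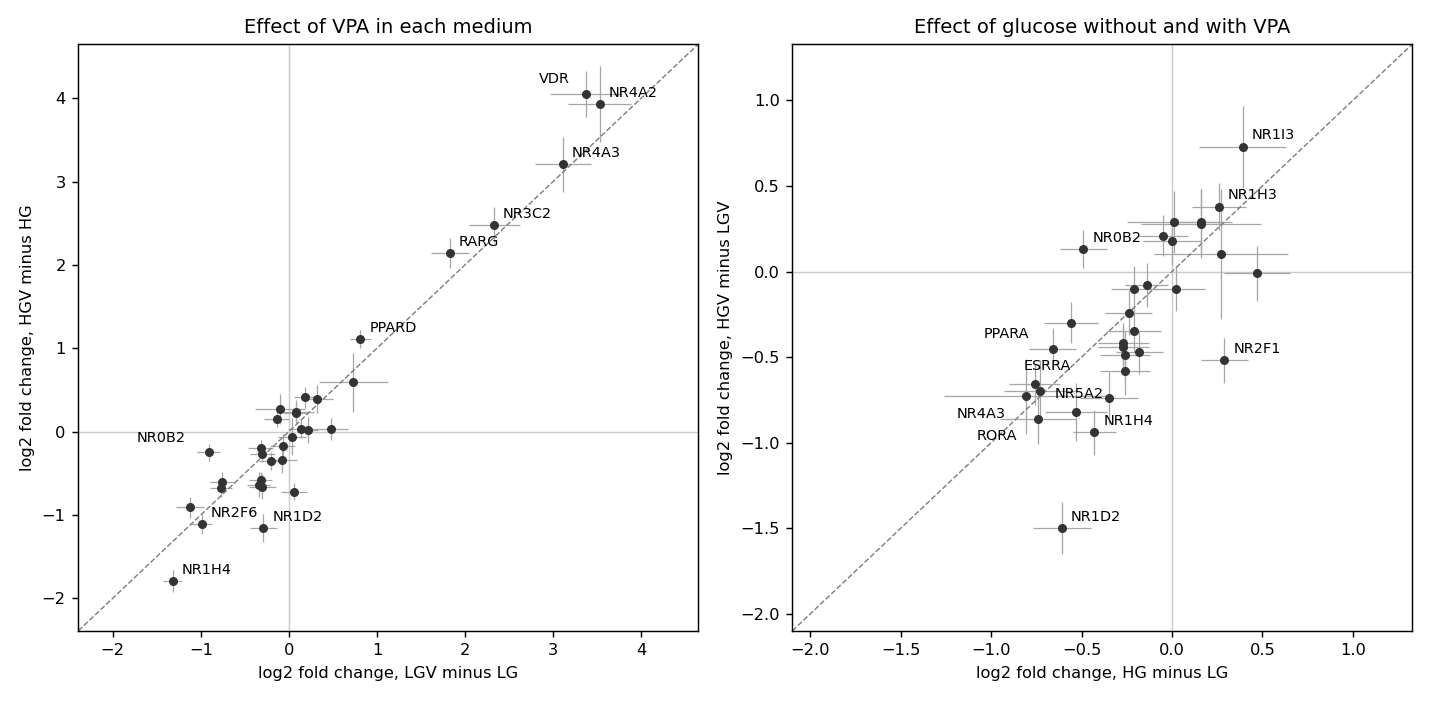
Left, log2 fold change of each receptor with VPA in low glucose (x) against high glucose (y), n = 33. Right, log2 fold change with high glucose without VPA (x) against with VPA (y), n = 31, where bars are standard errors and the dashed line marks equal effects. NR0B2 lies above the line and NR1D2 and NR2F1 below it. The distance from the line reflects the same interaction in both plots, so the same side in both is no separate result. Most glucose effects lie in the lower left part of the right plot.

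The receptors' cofactors and targets were counted in the same way, beside the shares of all genes called higher and lower, which were 12% and 12.7% for HG against LG, 21.2% and 19.5% for HGV against LGV, 25.8% and 20.2% for HGV against HG and 21.7% and 19.9% for LGV against LG. Of 12 coactivators, 4 were lower in HG than in LG, with a list median of -0.29, and 8 were lower in HGV than in LGV, with a median of -0.51, beside 0.01 over all genes in both. With VPA, 1 was higher and 6 lower in high glucose (median -0.38) and 2 higher and 4 lower in low glucose (median -0.19). PPARGC1B, a partner of ESRRA and the PPARs, rose by 2.21 ± 0.20 in high glucose (edgeR FDR = 2.48e-06) and 2.40 ± 0.31 in low glucose (edgeR FDR = 2.7e-05), while the acetyltransferase CREBBP fell by 1.33 ± 0.13 (edgeR FDR = 5.03e-06) and 0.79 ± 0.14 (edgeR FDR = 0.000402) on the log2 scale. Of 9 corepressors, 1 was lower in HG than in LG, 6 were lower in HGV than in LGV, 2 were higher and 4 lower with VPA in high glucose, and 1 was higher and 1 lower in low glucose. Their medians were -0.24, -0.35, -0.19 and -0.03. With library size alone, 2 coactivators were lower in HG and 6 in HGV against low glucose, and VPA in high glucose gave 2 higher and 4 lower. With that scaling 1 of the 6 corepressor calls in HGV against LGV was left and none in HG against LG, and VPA in low glucose gave 1 higher. Some nuclear receptors outside the 40 fell with VPA. NR5A1 (steroidogenic factor 1) changed by -0.97 ± 0.11 in high glucose (edgeR FDR = 1.88e-05) and -1.13 ± 0.12 in low glucose (edgeR FDR = 5.86e-06). HNF4A, a central factor of hepatocytes, changed by -0.46 ± 0.09 in high glucose (edgeR FDR = 0.00141) and -0.73 ± 0.13 in low glucose (edgeR FDR = 0.000299). HNF4G changed by -0.74 ± 0.17 in high glucose (edgeR FDR = 0.00309) and was not called in low glucose (-0.34 ± 0.15, edgeR FDR = 0.0745).

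The known targets of a receptor did not move with its transcript in every case. Of 10 FXR and bile acid genes, 6 were lower with VPA in high glucose and 5 in low glucose, with medians of -0.37 and -0.29, and with library size alone 1 was higher and 4 lower in high glucose and 4 lower in low glucose. CYP7A1, the rate-limiting enzyme of bile acid synthesis and a gene that FXR represses through NR0B2, fell by 1.71 ± 0.40 in high glucose (edgeR FDR = 0.00357) and 1.65 ± 0.28 in low glucose (edgeR FDR = 0.000294). The sterol hydroxylase CYP8B1 fell by 1.92 ± 0.26 (edgeR FDR = 6.22e-05) and 2.22 ± 0.29 (edgeR FDR = 2.37e-05), so genes of bile acid synthesis were lower alongside lower NR1H4. By group average, SLC51B, ABCB4, CYP7A1 and CYP27A1 of this list were highest in LG and lowest in HGV, as NR1H4 was. SLC51A, SLC27A5, BAAT, CYP8B1, FETUB and KNG1 were not. Of these, SLC51A, SLC27A5 and FETUB were lowest in LG. SLC51B averaged 19.5 CPM in LG, 10.7 in HG, 11.4 in LGV and 5.23 in HGV. ABCB4 averaged 58.3, 35.5, 43.9 and 29.0 CPM in the same order. With high glucose, 2 of the 10 were higher and 2 lower without VPA (median -0.04), and 1 was higher and 4 lower with VPA (median -0.10). KNG1 went the other way from NR1H4 with glucose, averaging 4.02 CPM in LG, 14.2 in HG, 3.53 in LGV and 10.4 in HGV. Of 11 LXR targets, 4 were higher and 6 lower with VPA in high glucose (median -0.33) and 3 higher and 5 lower in low glucose (median -0.27). With library size alone the split in low glucose was 4 and 4. ABCG1, a cholesterol exporter, was counted with 0, 3 and 4 reads in LG, 41, 48 and 52 in LGV, 1, 4 and 2 in HG and 35, 69 and 34 in HGV, so it reached the minimum read count only through the treated libraries. SREBF1 fell by 1.23 ± 0.14 in low glucose (edgeR FDR = 7.3e-06). High glucose gave 2 higher and 1 lower among the LXR targets both without VPA (10 tested, median -0.12) and with it (11 tested, median 0.22).

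More PPAR targets were higher than lower with high glucose, where PPARA was lower. Of 18 measured, 10 were higher and 2 lower in HG than in LG (median 0.48), and 8 were higher and 2 lower in HGV than in LGV (median 0.35), beside a median of 0.01 over all genes. FABP1, the liver fatty acid binding protein, rose by 1.36 ± 0.15 in HGV against LGV (edgeR FDR = 4.17e-06), and FGF21 fell by 1.05 ± 0.30 in HG (edgeR FDR = 0.0158). VPA gave 6 higher and 5 lower in high glucose (median 0.13) and 3 higher and 4 lower in low glucose (median -0.24), with EHHADH, a peroxisomal oxidation enzyme, falling by 1.20 ± 0.12 (edgeR FDR = 5.76e-06) and 1.69 ± 0.23 (edgeR FDR = 4.35e-05). PDK4, with 6, 9 and 5 reads in LG, reached the minimum read count against LG only through HG or LGV. It therefore had to be higher in order to be tested in either comparison. The balance with VPA turned with the scaling. Library size alone gave 9 higher and 3 lower in high glucose and 5 higher and 3 lower in low glucose. DESeq2's size factors gave 4 higher and 5 lower in high glucose. Of 8 retinoic acid targets and handling genes, 4 were higher and 1 lower with VPA in high glucose (median 0.40), and of 7 tested in low glucose 3 were higher and 1 lower (median 0.25). CYP26B1, which degrades retinoic acid, rose by 4.05 ± 0.25 in low glucose (edgeR FDR = 3.92e-08). In high glucose it went from 2, 19 and 7 reads in HG to 423, 425 and 339 in HGV and reached the minimum only through the treated libraries. CRABP2, which carries retinoic acid, rose by 3.92 ± 0.22 in high glucose (edgeR FDR = 6.54e-08) and 2.67 ± 0.25 in low glucose (edgeR FDR = 1.38e-06), and DHRS3, a retinal reductase, fell by 2.02 ± 0.11 (edgeR FDR = 5.17e-08) and 2.33 ± 0.15 (edgeR FDR = 4.55e-08). With high glucose, 2 were higher and 1 lower without VPA (median 0.08, and 2 higher with library size alone) and 3 higher with VPA (median 0.27). Without VPA, RARRES3 (5, 4 and 7 reads in LG, 23, 32 and 28 in HG) reached the minimum read count only through HG. CYP26B1 (20, 33 and 18 reads in LG, 2, 19 and 7 in HG) reached it only through LG. Both had to differ in that direction in order to be tested.

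Clock genes other than the receptors were split. VPA gave 3 higher and 4 lower of 14 in high glucose (median -0.23) and 3 higher and 5 lower in low glucose (median -0.19). Among the 14, BHLHE41 was counted with 5, 4 and 4 reads in LG and 3, 4 and 4 in HG. It reached the minimum read count only through the treated libraries, so it had to be higher in order to be tested. ARNTL, the gene that the REV-ERB receptors repress, was 1.20 ± 0.17 higher with VPA in high glucose (edgeR FDR = 0.000103), where NR1D1 and NR1D2 were lower, and 1.23 ± 0.15 higher in low glucose (edgeR FDR = 1.93e-05), where neither passed. TEF fell by 1.42 ± 0.13 (edgeR FDR = 2.11e-06) and 1.55 ± 0.17 (edgeR FDR = 5.28e-06). High glucose gave 2 higher and 2 lower of 13 without VPA (median -0.12), with PER1 down by 1.06 ± 0.17 (edgeR FDR = 0.00021), and 1 higher and 5 lower of 14 with VPA (median -0.14). With library size alone the clock splits were 3 higher and 3 lower, and 4 and 4, with VPA in high and low glucose, and 2 and 1, and 2 and 3, with high glucose without and with VPA. Of 13 glucocorticoid receptor targets, 5 were higher and 6 lower with VPA in high glucose (median -0.02) and 2 higher and 5 lower in low glucose (median 0.06), although NR3C1 was not called in either. Library size alone gave 6 higher and 5 lower, and 3 and 4. SGK1 fell by 1.52 ± 0.11 (edgeR FDR = 4.12e-07) and 2.08 ± 0.18 (edgeR FDR = 7.22e-07). High glucose gave 3 higher and 3 lower without VPA (median 0.03) and 4 higher and 4 lower with VPA (median 0.26), with G6PC, the last enzyme of glucose production, up by 1.18 ± 0.19 (edgeR FDR = 0.000304) and 1.08 ± 0.16 (edgeR FDR = 5.9e-05).

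Of 12 PXR and CAR targets, 3 were higher and 5 lower with VPA in high glucose (median -0.43) and 2 higher and 4 lower in low glucose (median -0.40). GSTA1, a glutathione transferase, fell by 2.43 ± 0.22 (edgeR FDR = 2.14e-06) and 1.99 ± 0.21 (edgeR FDR = 3.79e-06) in high and low glucose. CYP2B6, the classic CAR target, was counted with 3, 7 and 0 reads in LG, 24, 14 and 30 in LGV, 4, 1 and 5 in HG and 22, 19 and 18 in HGV. CYP2B6 too reached the minimum read count only through the treated libraries. CYP3A43 had 20, 26 and 42 reads in LG and 9, 2 and 3 in LGV. In low glucose it reached the minimum only through LG, so it had to be lower in order to be tested. With high glucose, 3 were higher and 4 lower of 11 without VPA (median -0.39) and 3 lower of 11 with VPA (median -0.31). By library size alone the split was 3 and 3 without VPA, and 4 and 5 with VPA against HG, and by DESeq2's size factors 2 and 4, and 2 and 5. Of 3 targets of thyroid hormone and vitamin D, HR, a corepressor gene regulated by thyroid hormone, rose with VPA by 1.63 ± 0.17 in high glucose (edgeR FDR = 8.95e-06) and 1.25 ± 0.27 in low glucose (edgeR FDR = 0.00188), and DIO1 was 0.70 ± 0.18 higher in HGV than in LGV (edgeR FDR = 0.00501). These were the only calls in this list. The vitamin D target CYP24A1 was called in no comparison. It averaged 1.86 CPM in LG, 2.33 in HG, 2.28 in LGV and 3.4 in HGV. The list medians were 0.53, 0.31, 0.36 and 0.55 for VPA in high and low glucose and for glucose without and with VPA. The lists hold few genes, and each of their counts is a description.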

How the data were processed

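RNA was measured by single-end mRNA sequencing in 12 HepG2 libraries. The authors trimmed the reads, aligned them with STAR to GRCh37, counted them per gene with featureCounts and deposited raw read counts of genes averaging at least 10 reads per sample. The submitters' processing notes also name bcl2fastq 2.17.1.14. Whether the counting used strand is not given in the sources used here.

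Groups were taken from the sample labels. Each comparison was fitted in its own libraries (the interaction of glucose and VPA in all 12) with edgeR 4.0.16 (R 4.3.3): TMM scaling, a mean count of at least 10 in the libraries compared, the quasi-likelihood F test and Benjamini-Hochberg FDR over all genes tested. The SE is the size of the log2 fold change divided by the square root of F. Exon lengths, positions and overlaps came from GENCODE on GRCh37, where 97.47% of genes were found by identifier. The members and gene lists were chosen with earlier results of these data known. Every receptor with a row is named. From each list at most the 3 called genes with the largest change per comparison are named, with a few others added. Some list genes are not reported here. Alternatives were DESeq2 1.42.0 and its size factors, library size alone, the likelihood ratio test, other filters, a replicate block, a joint fit and leaving out each library. On counts simulated for HG and LG with a fold of 2, 153 of 196 changed genes among 15334 were recovered (78.1%), with 7.27% of the calls wrong. Simulated interactions, among 16284 genes, were recovered in 47.5%.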

Additional observations from a re-analysis of the deposited data

How the results depend on the processing

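No receptor past the threshold in the reported test or in an alternative changed direction between them. Past the threshold in every alternative stood 2 of the 9 receptors called in HG against LG, 12 of 21 in HGV against LGV, 16 of 19 in HGV against HG and 12 of 13 in LGV against LG. The VPA counts include VDR and NR4A2, and NR4A3 in high glucose, which had to differ in order to enter the reported test. An FDR of 0.01 left 2 receptors called for HG against LG and 13 for HGV against LGV. With 1 library left out in turn, the counts ran from 4 to 12 for HG against LG, 12 to 21 for HGV against LGV, 16 to 21 for HGV against HG, 12 to 16 for LGV against LG and 0 to 2 for the interaction, where leaving out LG replicate 2 gave the 2. The interaction called 3 receptors by the likelihood ratio test and 3 by DESeq2, where 1 adjusted p was missing. Over all genes it called 7, against 202 by the likelihood ratio test, 161 by DESeq2, 13 with the replicate block and 1 with library size alone; the cause was not tested. An FDR of 0.01 lowered the genes called from 3813 to 1852 for HG against LG, from 6604 to 4263 for HGV against LGV and from 7 to 1 for the interaction. Replicate numbers are shared between groups. Deviations of same-numbered libraries correlated from -0.201 to 0.295, and those of other libraries from -0.387 to 0.409. Not every library correlated best with its own number. As the deviations are from means of 3 libraries, these values cannot tell whether the numbers pair the samples. With the replicate block 9, 21, 20 and 15 receptors were called in the order above, and 0 for the interaction. Counted per receptor, comparison and setting, a call was gained 45 times and lost 92 times. Receptors under 1 CPM in untreated cells rest on few reads (14 for VDR over the 3 LG libraries), so their fold changes are less certain than those of abundant receptors.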
